A study of Mus musculus with 2 samples.

Results

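The histone genes of the mouse were described in total RNA of the adult hippocampus. Members were the protein-coding genes whose symbol begins with Hist and a digit followed by h, or with H2af, H3f or H1f. This rule took 82 of 21901 protein-coding genes, out of 55536 annotated genes. Of the 82, 67 carry a Hist symbol and are called cluster genes here, and 15 are variant genes outside the clusters. The cluster genes comprise 6 H1, 18 H2A, 18 H2B, 12 H3 and 13 H4 genes, and the variants 4 H1, 9 H2A and 2 H3 genes. The rule used no measured value.

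The tissue came from male 5xFAD/CAST mice, a cross of the 5xFAD line with Cast, aged 8 to 10 months and labelled as hippocampus. 5xFAD is a transgenic mouse model of Alzheimer disease whose transgenes are driven by a neuronal Thy1 promoter. There were 2 libraries of 1 group, each from 300 ng of total RNA, which the labels call biological replicates 1 and 2 and to which they give the same donor identifier. Mice without the transgenes were not analysed here, so no condition was compared, and each SD or p-value reflects only how far these 2 samples lie apart, and that distance may be technical.

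Histones package DNA into nucleosomes, each built on an octamer of H2A, H2B, H3 and H4, with linker histone H1 bound where DNA enters and leaves. Most cluster genes are replication-dependent histones, which have no introns and are transcribed mainly in S phase. Their mRNAs end in a conserved stem-loop bound by Slbp instead of a poly(A) tail, so that RNA selected by poly(A) largely misses them. Variant genes such as H3f3a, H3f3b and H2afz are expressed through the whole cell cycle from polyadenylated mRNAs, and their proteins are placed in chromatin outside replication, which makes them the main source of new H3 in neurons that no longer divide.

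The stem-loop is shown first because it is the sequence feature found in most cluster genes and in 1 variant. It was read from the leading coding transcript of each gene in GENCODE M21 (mm10), with the 16 bases of the stem-loop in capitals and up to 6 bases on either side.
Hist2h2aa2, chr3:96239784-96239799, minus strand: taaaaaGGCTCTTTTCAGAGCCacccac
Hist1h1c, chr13:23739512-23739527, plus strand: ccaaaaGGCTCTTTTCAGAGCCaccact
Hist1h4h, chr13:23531458-23531473, plus strand: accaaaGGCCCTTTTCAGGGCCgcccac
Hist1h3e, chr13:23561903-23561918, minus strand: caaaacGGCTCTTTTAAGAGCCacctcc
H2afx, chr9:44335240-44335255, plus strand: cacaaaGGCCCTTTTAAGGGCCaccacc
Coordinates cover the capitals. The pattern searched on the sense strand was GG, any 2 bases, CT, any 2 bases, T, any base, AG, any 2 bases and CC. After the stop codon, 47 of the 82 leading transcripts held it. At the end of the annotated transcript (the stem-loop and at most 100 bases after it), 23 of 82 held it (28.0%), against 8 of 58696 other protein-coding transcripts (0.0136%). On the antisense strand the same window held it in 0 of 82 and in 9 of 58696 transcripts. The letters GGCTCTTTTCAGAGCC were shared by 26 genes of the H1, H2A, H2B and H3 classes, and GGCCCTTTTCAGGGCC by 7 genes, all of them H4. H2afx, whose protein is phosphorylated at DNA breaks, was the only one of the 15 variants with a match.

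The H3 proteins of variants and clusters differ at few codons. The 60 coding bases shown run from base 244 of the coding sequence, and capitals mark codons whose encoded residue is not the same in all 4 genes.
H3f3a, chr1:180803185-180810155, minus strand, across an intron: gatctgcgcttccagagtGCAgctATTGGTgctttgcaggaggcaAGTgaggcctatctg
H3f3b, chr11:116023515-116023663, minus strand, across an intron: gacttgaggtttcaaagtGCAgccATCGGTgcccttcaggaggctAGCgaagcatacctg
Hist1h3a, chr13:23762051-23762110, minus strand: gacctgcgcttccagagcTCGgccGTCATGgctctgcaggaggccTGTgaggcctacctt
Hist1h3e, chr13:23562063-23562122, minus strand: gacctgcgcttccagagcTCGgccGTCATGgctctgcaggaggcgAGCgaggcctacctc
Of 136 codons, 5 encoded different residues among these genes, and 4 of the 5 lie in this window. For H3f3a the transcript H3f3a-207 was used here, not the leading H3f3a-201, whose coding sequence is annotated at 408 bases. By this transcript H3f3a and H3f3b encode the same protein, H3.3, from coding sequences that differ at 95 of 411 bases. Hist1h3a and Hist1h3e differ from each other at 13 bases and 1 residue.

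The H4 genes show how near the copies come. All 13 encode the same protein, from 12 distinct coding sequences with a median pairwise identity of 93.9% (85.3% to 100%). The first 90 coding bases of 5 of them follow, with capitals at the 22 positions where the 5 are not all equal.
Hist1h4m, chr13:21811784-21811873, plus strand: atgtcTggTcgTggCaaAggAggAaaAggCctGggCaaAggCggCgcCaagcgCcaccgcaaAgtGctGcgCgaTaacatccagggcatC
Hist1h4n, chr13:21832069-21832158, minus strand: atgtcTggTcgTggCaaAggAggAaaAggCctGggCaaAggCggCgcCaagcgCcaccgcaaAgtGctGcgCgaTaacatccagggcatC
Hist1h4h, chr13:23531115-23531204, plus strand: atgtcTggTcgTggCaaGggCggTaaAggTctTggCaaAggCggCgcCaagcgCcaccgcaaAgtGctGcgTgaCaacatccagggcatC
Hist1h4d, chr13:23581602-23581691, plus strand: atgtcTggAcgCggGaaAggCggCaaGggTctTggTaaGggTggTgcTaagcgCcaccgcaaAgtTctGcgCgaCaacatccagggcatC
Hist4h4, chr6:136804290-136804379, minus strand: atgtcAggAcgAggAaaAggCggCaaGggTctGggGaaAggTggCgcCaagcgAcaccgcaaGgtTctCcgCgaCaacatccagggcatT
Hist1h4m and Hist1h4n have the same letters here and over the whole coding sequence. The same held for Hist1h2ao with Hist1h2ap, Hist2h2aa1 with Hist2h2aa2, Hist1h2bq with Hist1h2br, and Hist2h3c1 with Hist2h3c2. Of the 12 cluster H3 genes, 8 encode the same protein, as do 9 of the 18 cluster H2A genes and 6 of the 18 H2B genes.

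The gene tables held 26128897 (replicate 1) and 28689423 (replicate 2) expected counts, of which the 82 members took 0.0841% in each library. A gene listed at 0 may still have had up to 3 counts, or 0.115 and 0.105 CPM (counts scaled to the library's total), and such limits cover counting error only. Marker genes of hippocampal cell types were present: all 7 markers of excitatory neurons, 5 of astrocytes and 5 of oligodendrocytes reached TPM of at least 1 in both libraries. TPM, a transcript's abundance, is the level per length of transcript, scaled to 1 total per library. The libraries differed in neighbouring tissue: 8 of 8 choroid plexus markers were higher in replicate 1 (summed level 1203 against 185 TPM), as were 8 of 8 striatum markers, 7 of them by more than 2-fold (211 against 78.8 TPM), and their part in the values of histone genes was not tested.

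Histone genes were expressed broadly, and the median variant stood above the median cluster gene. TPM reached 1 in both libraries for 67 of 82 members, against 60.6% of all protein-coding genes. Among them were 57 of 67 cluster genes and 10 of 15 variants. The median over cluster genes was 6.57 TPM in replicate 1 and 7.61 in replicate 2, or 7.09 ± 0.735 (SD, n = 2). The median over variants was 18.7 and 19.8 TPM, or 19.2 ± 0.757 (SD, n = 2), and that over all protein-coding genes was 4.41 ± 0.0990 TPM (SD, n = 2). The log2 ratio of the cluster over the variant median was -1.44 ± 0.09 (SD, n = 2). This direction belongs to the median: the difference in mean log2(TPM + 1) was -0.35, and that in mean log2(TPM + 0.1), which gives the members at 0 more weight, was 0.24.

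The order also turned around when genes were added up, because there are more cluster genes. Summed TPM was 1084 and 1152 over the clusters and 494 and 516 over the variants, a log2 ratio of 1.15 ± 0.02 (SD, n = 2). All members together held 1579 and 1668 TPM, which was 0.329% and 0.338% of the summed TPM of protein-coding genes. In bulk tissue, fewer cells of a type and less RNA per cell cannot be told apart.

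**Figure D1:**
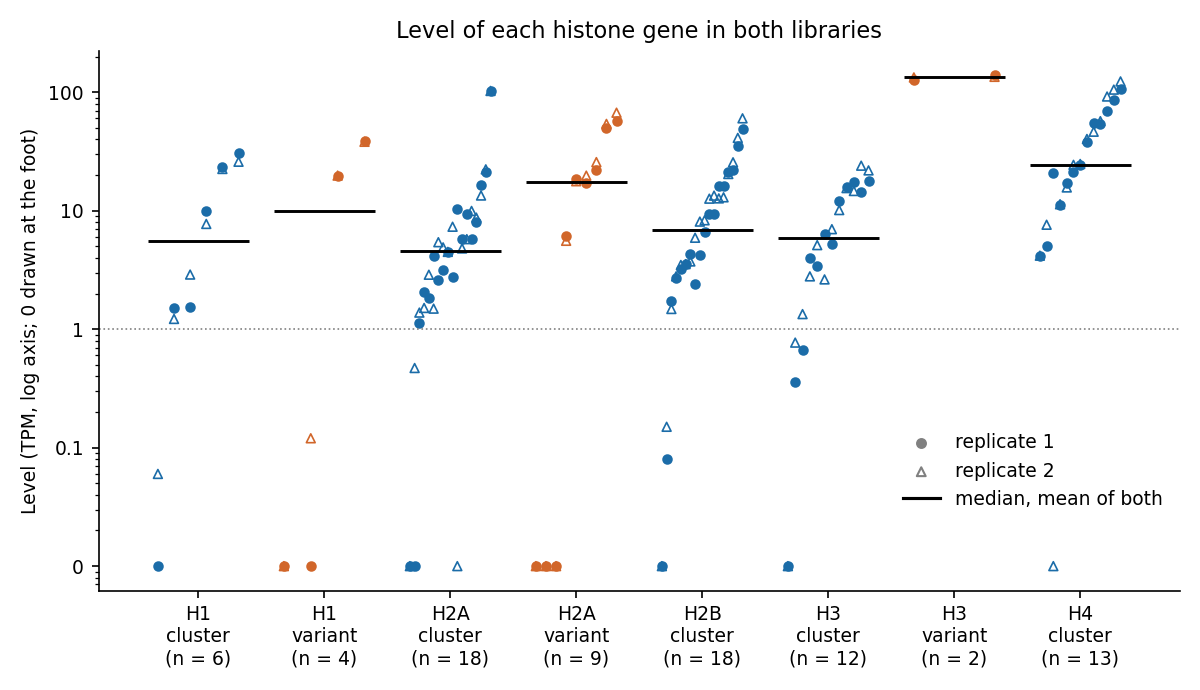
Level in TPM (log axis, zeros at the foot) of each of the 82 histone genes, by class and group. Filled circles are replicate 1, open triangles replicate 2, black bars the mean of both libraries' medians; both H3 variants lie above 100 TPM and H4 has the highest cluster median, at 24.5 TPM.

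The H3 class was carried by its variants. H3f3b and H3f3a, which encode H3.3, were the members with the highest levels by alignment. In the alignment-free table Hist1h4k (157 ± 21.2 TPM) and Hist1h4h (147 ± 31.7 TPM; SD, n = 2) had higher means than H3f3b. The 2 quantifications divide counts by different effective lengths, so TPM can differ between them without a difference in reads. In replicate 1 the 348-base H2afb1 had 248 bases by alignment and 122 without, and the 2055-base H1f0 had 1955 and 1822. H3f3b (chr11:116021912-116027962) was measured at 139 TPM in replicate 1 and at 135 in replicate 2, or 137 ± 2.90 (SD, n = 2). H3f3a (chr1:180800832-180813943) was at 126 and 133 TPM, or 130 ± 5.01 (SD, n = 2). H3f3b was above H3f3a in both libraries by this measure, but in the alignment-free quantification H3f3a (141 and 167 TPM) was above H3f3b (101.4 and 108 TPM), so the order of these genes depends on the table. Together they held 265 and 268 TPM, against 97.01 and 106 TPM for all 12 cluster H3 genes. The variants thus made up 72.5% ± 1.06 of H3 TPM (SD, n = 2), and 72.5% ± 0.0997 in the alignment-free quantification. All transcripts of a gene, coding or not, enter these shares. Among them is the noncoding H3f3b-204, described below, which held the largest part of H3f3b by alignment. Counted as reads, without regard to length, their share was 84.3% ± 0.871 (SD, n = 2). The cluster H3 gene with the highest mean, Hist1h3h, reached 17.7 and 21.9 TPM, and each H3.3 gene was above every cluster H3 gene in both libraries.

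Among H2A variants, H2afz and H2afy led when all transcripts of a gene were added up. H2afz encodes H2A.Z, which marks promoters and was at 57.1 and 67.2 TPM, or 62.1 ± 7.13 (SD, n = 2). H2afy encodes macroH2A1, which has a large non-histone domain and is enriched on silent chromatin, and was at 49.6 and 54.0 TPM, or 51.8 ± 3.10 (SD, n = 2). H2afz and H2afy did not overlap in level across the libraries. By alignment, the coding H2afy-201 held 14.4 and 14.0 TPM and the coding H2afy-202 held 9.53 and 9.64. The rest of H2afy lay in transcripts not annotated as coding. H2afj followed at 22.03 and 25.71 TPM, H2afx at 17.1 and 19.8 TPM, and H2afv, the other H2A.Z gene, at 18.7 and 17.7 TPM. In alignment-free TPM H2afj was lower, at 14.0 ± 1.17 (SD, n = 2), and below H2afx (16.4 ± 1.82) and H2afv (17.7 ± 0.544). H2afx and H2afv overlapped. H2afy2, which encodes macroH2A2, was the lowest expressed of the detected variants, with 6.11 and 5.57 TPM. The 9 variants made up 47.4% ± 2.27 of H2A TPM (SD, n = 2), and by counts 63.4% ± 1.43 (SD, n = 2). These shares include noncoding transcripts of the variants.

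Linker histone RNA came from few genes. H1f0, the linker histone that accumulates in differentiated cells, was at 39.1 and 38.2 TPM, or 38.6 ± 0.636 (SD, n = 2). Hist1h1c (H1.2) followed at 30.7 and 25.9 TPM, Hist1h1e (H1.4) at 23.4 and 22.5, and H1fx (H1.10) at 19.7 and 19.8. By alignment none of these 4 genes overlapped another in level. In alignment-free TPM H1fx (18.7 and 20.5) was above Hist1h1e (17.8 and 18.5) and overlapped Hist1h1c (23.97 and 20.11). Hist1h1a, the linker histone H1.1, reached 9.89 and 7.73 TPM, and Hist1h1b and Hist1h1d stayed between 1.22 and 2.89 TPM. Variants held 47.9% ± 1.65 of H1 TPM (SD, n = 2).

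H4, which like H2B has no variant among the members, had the highest cluster levels. Its median was 24.3 and 24.8 TPM, and its 13 genes summed to 511 and 552 TPM. Hist1h4k (chr13:21750194-21750505) was at 106 and 123 TPM, Hist1h4h (chr13:23531050-23531519) at 86.0 and 105, and Hist1h4m (chr13:21811746-21812147) at 69.6 and 92.0. The ranges of Hist1h4h and Hist1h4m overlapped. Next came Hist1h4d at 53.5 and 57.0 TPM, Hist1h4f at 54.8 and 46.4, and Hist1h4c at 37.9 and 40.3. These were lower in alignment-free TPM, at 31.0 ± 2.19, 28.7 ± 4.77 and 25.3 ± 4.57 (SD, n = 2). Hist4h4, the lone gene of the fourth locus, was at 4.13 and 4.17 TPM. The class thus ran over more than a 10-fold range in TPM, and 10 of its 13 genes were at 10 TPM or more in both libraries. Hist4h4 is annotated over 2863 bases and Hist1h4k over 312, and TPM is a level per length. The part of annotated length in this range was not tested.

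In the H2A and H2B classes 1 gene or a few carried most of the level. Hist2h2aa2 (chr3:96239749-96240276) stood at 102 TPM in both libraries, while the median of the 18 cluster H2A genes was 4.57 ± 0.400 TPM (SD, n = 2). Its level includes reads that its identical copy cannot be told from, as described below. Hist3h2a followed at 21.3 and 22.3 TPM. Of the H2B genes, Hist2h2bb was at 48.6 and 60.2 TPM, Hist3h2ba at 35.5 and 41.1, Hist1h2bg at 21.9 and 25.6, and Hist1h2bc at 21.3 and 20.4. The class median was 6.83 ± 1.93 TPM (SD, n = 2). The Hist2h3b and Hist1h3h genes led the cluster H3 class at 19.1 ± 6.87 and 19.8 ± 2.98 TPM by alignment (SD, n = 2), and overlapped. In alignment-free TPM Hist1h3b had the highest mean of the class, at 18.4 ± 0.730 (SD, n = 2), against 4.48 ± 2.62 by alignment.

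By locus, the 54 Hist1 genes on chromosome 13 summed to 838 ± 32.1 TPM (SD, n = 2), and 45 of them were detected. The 10 Hist2 genes on chromosome 3 summed to 215 ± 11.2 TPM (SD, n = 2). The Hist3 locus on chromosome 11 held 60.2 ± 4.70 TPM in 2 genes, and its median per gene (28.4 and 31.7 TPM) was above that of Hist1 (6.45 and 7.47) and Hist2 (8.47 and 8.07) in both libraries.

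Genes known from the germ line were at or near 0. Hist1h2ba and Hist1h2aa, the testis forms of H2B and H2A, had no counts in either library, nor did H1fnt of spermatids or the 3 H2afb genes of the testis. Hist1h1t, the testis linker histone, and H1foo, the linker histone of the oocyte, had 0 counts in replicate 1 and 1 count in replicate 2. The other member with no counts in either library was Hist2h3c1. All of its windows of 1 read's length also occur in other genes, so a count of 0 there is not evidence of no expression. Hist1h3c, Hist1h3g, Hist1h2an and Hist1h2bh, at 0 to 1.34 TPM, made up the rest of the 15 genes not detected, with Hist1h4n and Hist1h2ap, which were listed at 0 in replicate 2 only.

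How a gene's end is annotated sets the length by which its counts are divided. In 23 cluster genes the annotated transcript ended within 100 bases after the stem-loop. In 23 other cluster genes and H2afx the annotation ran further, by up to 4884 bases in Hist1h1d. In 15 cluster genes and 3 variants it stopped at the stop codon, so that bases after it were not part of the transcript counted. The remaining 6 cluster genes and 11 variants gave no match. Median levels of the first 3 kinds of cluster gene were 6.95 ± 0.530, 6.41 ± 1.70 and 7.86 ± 2.96 TPM (SD, n = 2), which overlapped. Median counts of the same kinds differed more, at 54.0 and 53.9, 201 and 173, and 36.0 and 56.5.

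Single genes show the size of this. Hist1h4k, annotated over 312 bases, had 408 and 507 expected counts, and Hist1h4d, annotated over 1138 bases, had 1008 and 1146. Hist1h4d therefore had more reads in both libraries and less TPM in both. Hist1h1d, a linker histone, took 201 and 173 counts but only 1.51 and 1.22 TPM.

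Many H2A and H2B genes lie head to head and share the DNA between their starts. Within 1000 bases, 13 such divergent pairs of members were found, 12 of them an H2A with an H2B, with 175 to 659 bases between the annotated starts. Levels within pairs were often unequal: 5 pairs were more than 4-fold apart in both libraries and 4 were within 2-fold in both, on a scale of TPM + 0.1. Of these 4, Hist1h2ba with Hist1h2aa had both genes at 0.

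**Figure D2:**
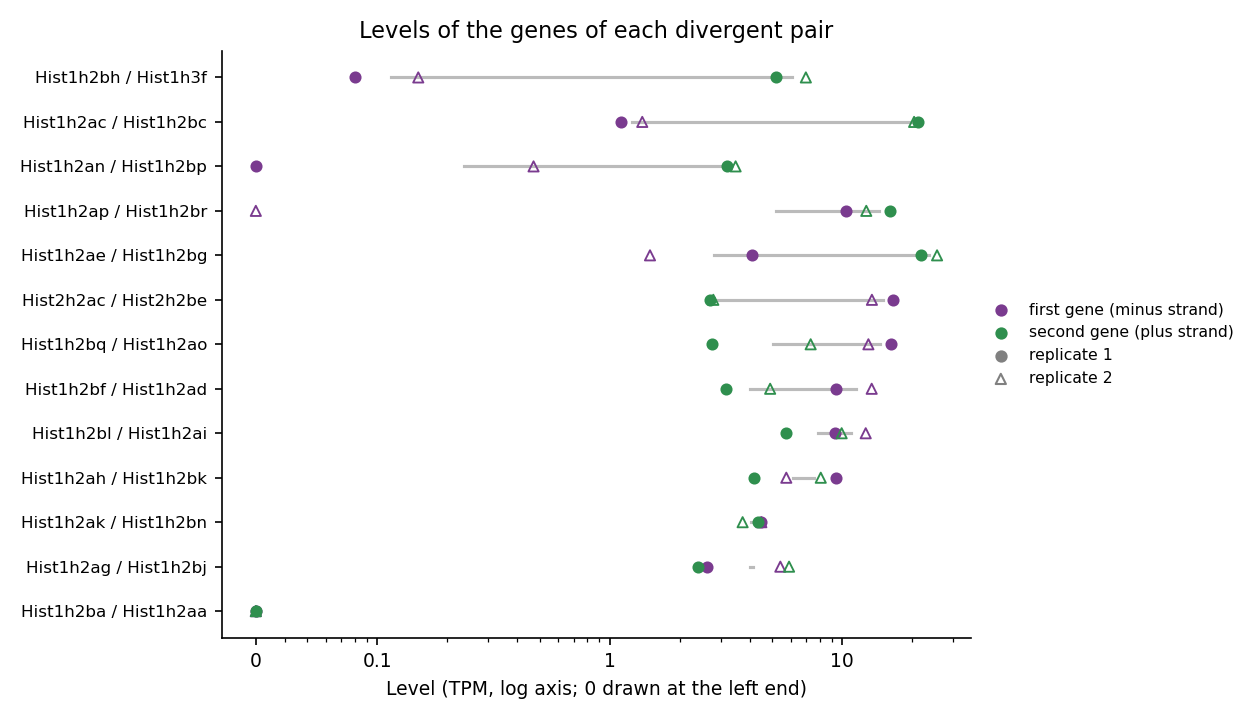
Level in TPM (log axis, zeros at the left end) of the genes of the 13 divergent pairs, ordered by the size of the mean log2 ratio within the pair. Purple marks the minus-strand gene, green the plus-strand gene, circles replicate 1, triangles replicate 2, and grey lines join the means of the genes; Hist1h2ac lies near 1 TPM and its partner Hist1h2bc near 20.

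A pair of each direction is shown by the 250 bases before the RefSeq start of the minus-strand gene (GRCm38.p6), a stretch that covers nearly all of the DNA between the partners. Capitals mark TATAAA and CCAAT in either orientation (the reverse forms read TTTATA and ATTGG).
Hist1h2ac, chr13:23683960-23684209, minus strand: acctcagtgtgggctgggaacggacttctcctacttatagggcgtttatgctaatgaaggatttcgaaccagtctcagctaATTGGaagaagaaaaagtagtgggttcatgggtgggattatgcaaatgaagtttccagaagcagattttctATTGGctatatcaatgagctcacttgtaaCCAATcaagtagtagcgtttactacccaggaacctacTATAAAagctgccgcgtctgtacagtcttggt
Hist2h2ac, chr3:96220881-96221130, minus strand: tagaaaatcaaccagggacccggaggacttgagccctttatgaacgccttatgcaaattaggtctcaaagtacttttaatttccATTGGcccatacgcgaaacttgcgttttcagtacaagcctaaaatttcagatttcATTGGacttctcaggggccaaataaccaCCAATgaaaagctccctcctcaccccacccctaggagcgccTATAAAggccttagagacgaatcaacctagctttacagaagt
Each window held TATAAA once, toward the H2A gene, CCAAT once and ATTGG at 2 places. The pairs differed in which partner was higher. Hist1h2ac was at 1.12 and 1.38 TPM and its H2B partner Hist1h2bc at 21.3 and 20.4, a log2 ratio of -3.96 ± 0.24 (SD, n = 2). Hist2h2ac was at 16.5 and 13.4 TPM and its partner Hist2h2be at 2.71 and 2.79, a log2 ratio of 2.39 ± 0.24 (SD, n = 2). In both pairs the gene with the higher TPM has the shorter annotation. In counts, Hist2h2ac (126 and 109) and Hist2h2be (124 and 136) were close, while Hist1h2bc (407 and 417) stayed above Hist1h2ac (48.2 and 63.6).

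RefSeq gave a promoter for 76 of the 82 members. In the 250 bases before the start, 29 of 63 cluster promoters held TATAAA on either strand (46.0%), as did 1 of 14 variant promoters (7.14%) and 12.4% of all 32851 promoters. CCAAT stood in 52 of 63 cluster promoters (82.5%), 9 of 14 variant promoters (64.3%) and 33.8% of all. These motifs do not overlap each other in letters, and a match describes the sequence only. Partners of a divergent pair can share most of this window, so the same motif can count for both. The cluster promoters are thus not independent of each other.

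Between the libraries, the typical cluster gene and the typical variant did not shift. The log2 ratio of replicate 2 over replicate 1, scaled by TMM after adding 0.5 counts, had a median of 0.02 over 56 cluster genes and 0.00 over 10 variants that averaged 20 or more expected counts. All 16971 genes tested had a median of -0.00. Scaled on the ERCC spike-ins instead, all genes moved to a median of 0.27, cluster genes to 0.29 and variants to 0.27. Changing the scale adds the same amount to every gene, so it cannot show histone genes shifting against the others. The size of the ratio regardless of sign was larger for cluster genes, with a median of 0.28, than for variants (0.13) or all genes (0.12). These groups were not matched on counts. The median expected count was 75.8 over all cluster genes, 410.5 over all variants and 176 over protein-coding genes. Over all genes the size fell from 0.146 at a mean count of at least 5 to 0.0951 at 100 or more.

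Single cluster genes lay further apart. With an exact conditional binomial test, Benjamini-Hochberg adjusted over 16971 genes, 6 of 66 members tested differed more than 2-fold at an adjusted p under 0.05. Over all genes tested this share was 1.81%. It depends on counts: it was 2.5% over genes that averaged at least 5 and 0.633% over those that averaged at least 100. All 6 were cluster genes: 4 were higher in replicate 1 (1.44% of all genes) and 2 in replicate 2 (0.377%). The test sets the ratio against counting error in these 2 libraries and says nothing of a condition. At any fold, 13 members passed, against 18% of all genes, among them H2afz and H2afj of the variants.

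The largest ratios belonged to near-identical copies. Hist1h4n had 124 expected counts in replicate 1 and 0 in replicate 2. By these counts alone it was at least 45.2-fold higher in replicate 1, with the 0 set to its limit of 3 counts (exact binomial test, adjusted p = 6.17e-38). Other estimates gave less: the log2 ratio was -3.10 with posterior mean counts, and the alignment-free counts were 7.27 and 7.93. Its copy Hist1h4m had 381 and 538 counts. Their sum, 505 and 538 counts, gave a log2 ratio of -0.04, and the libraries differed in how the expected counts were divided between the copies, little in their total.

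The second such set was Hist1h2ap, with 72.1 and 0 expected counts and by these alone at least 26.3-fold higher in replicate 1 (exact binomial test, adjusted p = 1.42e-21), and its copy Hist1h2ao, with 19.03 and 53.90 counts (log2 ratio 1.35, exact binomial test, adjusted p = 0.00265). The opposite directions of these copies held for expected counts only. With posterior mean counts the log2 ratio was -0.041 for Hist1h2ao (exact binomial test, adjusted p = 1) and -1.59 for Hist1h2ap. With alignment-free counts Hist1h2ap was at -0.31 (adjusted p = 0.61) and Hist1h2ao was listed at or near 0. The sum of both copies was 91.2 and 53.9 expected counts, a log2 ratio of -0.88, and -0.31 in alignment-free counts, and was not tested.

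The other 3 were Hist1h2ae (45.1 and 17.4 counts, log2 ratio -1.48, exact binomial test, adjusted p = 0.00155), Hist1h3b (59.8 and 26.5 counts, log2 ratio -1.28, adjusted p = 0.00130) and Hist1h2bj (15.8 and 41.6 counts, log2 ratio 1.25, adjusted p = 0.0199). These genes had at most 59.8 counts in a library. They share 30.6%, 56.5% and 39.7% of their windows with other genes. In the alignment-free counts Hist1h2ae kept its direction and its call (adjusted p = 0.0199), whereas Hist1h3b, at 177 and 168 counts there, had a log2 ratio of -0.20 (adjusted p = 0.473).

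Summed by class, the libraries lay close together. Summed cluster counts gave log2 ratios of 0.06 for H4, 0.10 for H3, 0.11 for H2B, -0.04 for H2A and -0.19 for H1, and summed variants gave -0.04 for H3, 0.09 for H2A and -0.06 for H1. Class sums are not affected by how reads are divided among copies of the class. They can still depend on how reads are divided with genes outside the class, which was not tested.

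**Figure D3:**
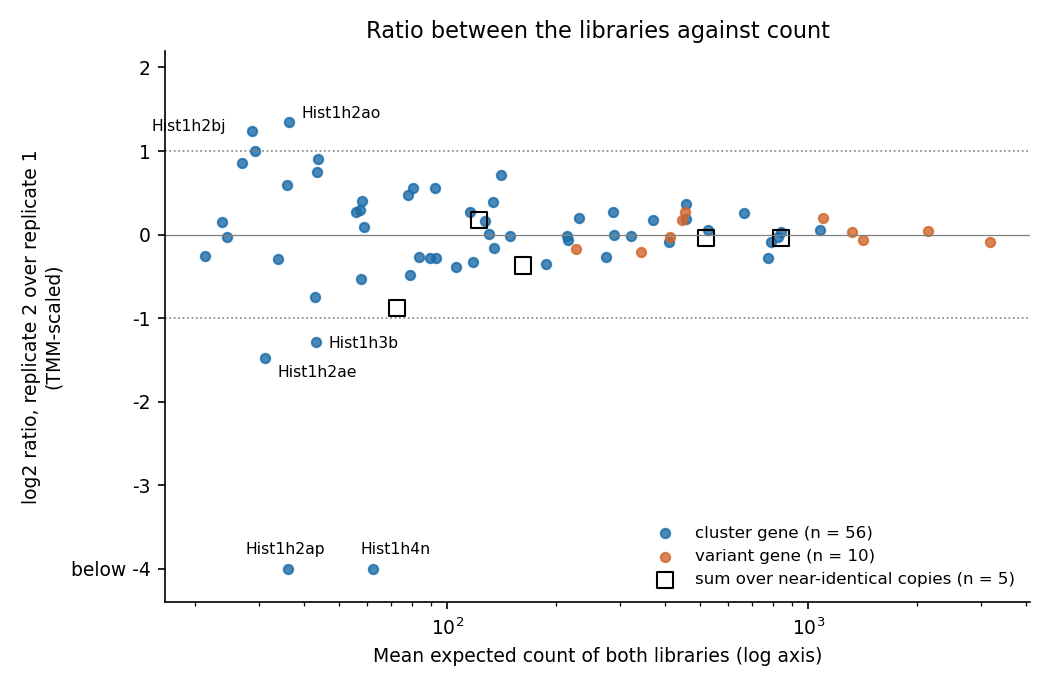
log2 ratio of replicate 2 over replicate 1 (TMM-scaled) against the mean expected count (log axis) for the 66 members with a mean count of at least 20. Dotted lines mark 2-fold, the 6 named genes are those apart beyond it, the 2 drawn at the foot had a count of 0 in replicate 2, and open squares are sums over near-identical copies, all 5 within 2-fold.

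The deposited coefficient of quartile variation of TPM shows which of these values are uncertain within a library. It is the distance between the quartiles of the estimate's distribution relative to their sum, and it widens both with few reads and with reads that several genes share. A member was called wide when the coefficient was over 2 times what counting error alone would give, in both libraries. This took 6 of 66 members, all of them cluster genes, against 17.4% of 14084 protein-coding genes. Which share is higher depends on the rule and on the genes compared. Among protein-coding genes with 1 transcript the share was 2.87%, and 4 of 56 members with 1 transcript (7.14%) were wide. At 3 times the counting width 3 members passed, against 2.34% of protein-coding genes, and at a coefficient of at least 0.1 in both libraries 23 passed, against 11.1%.

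The wide members all shared at least 76.1% of their windows with another gene. Hist1h2bq and Hist1h2br had coefficients of 0.345 and 0.352, and of 0.420 and 0.456, at 69.1 to 88.3 counts. Hist1h2ao had 0.590 and 0.352, Hist1h2ai 0.339 and 0.202, Hist1h2ah 0.338 and 0.321, and Hist1h2ag 0.384 and 0.220. H3f3b, at 3154 and 3239 counts, had 0.0152 and 0.0150, the narrowest of the members by mean. Hist1h4n and Hist1h2ap were not called because their count of 0 in replicate 2 gives no threshold. Their coefficients were 0.241 and 0.652, and 0.305 and 0.603, and with the posterior mean count in place of the expected count both were called, making 8.

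Width rose with shared sequence. For each member the share of its read-long windows (transcript length less effective length, plus 1) that also occur in another gene was counted in GENCODE M21 transcripts. Any window was shared by 66 of 82 members, and at least 50% were shared by 25, all cluster genes. Of members under 50%, 0 of 45 tested were wide; from 50% to 80%, 1 of 11 was; from 80% upward, 5 of 10 were. The median coefficient, as a multiple of the counting width, was 1.00 with no shared window and 2.86 from 80% upward. The median over all protein-coding genes was 1.42.

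**Figure D4:**
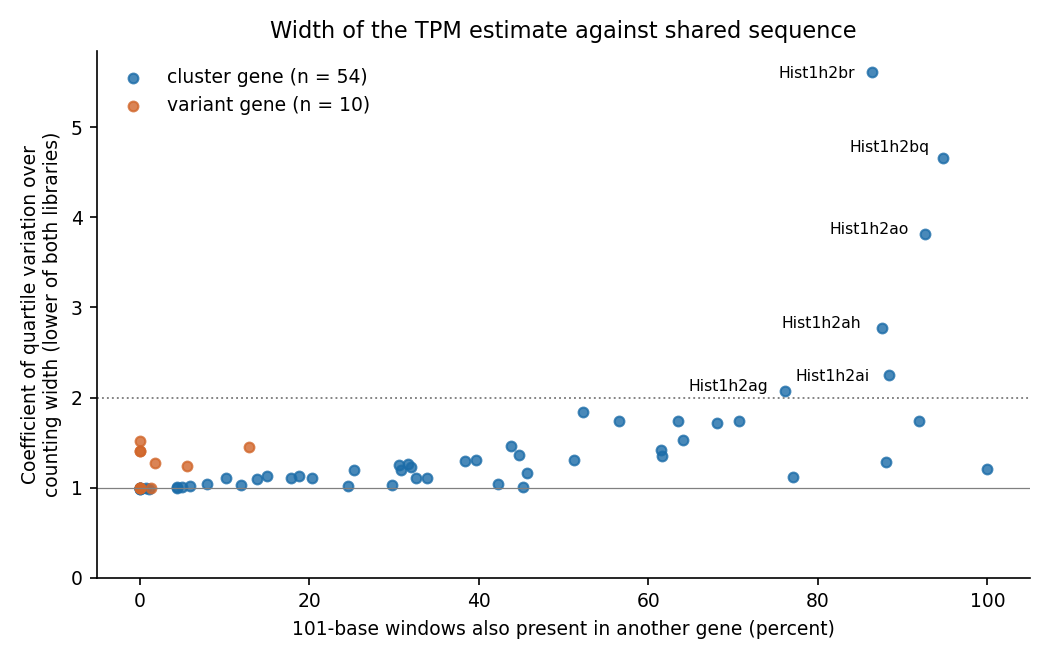
Coefficient of quartile variation divided by its counting width (the lower of both libraries) against the percent of read-long windows present in another gene, for 54 cluster genes and 10 variants with counts above 0 in both libraries. The dotted line is the threshold of 2 times; the 6 named genes lie above it and all share over 75% of their windows.

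A wide coefficient did not mark every copy. All windows of Hist2h2aa2 occur in Hist2h2aa1, yet its coefficients were 0.0339 and 0.0281. Its 796 and 850 expected counts stood beside 18.1 and 14.3 for Hist2h2aa1, while the alignment-free table gave 528 and 553 beside 304 and 350. The sum hardly depended on the table, at 814 and 864 against 832 and 903 counts. The pair's level of 104 ± 0.389 TPM (SD, n = 2) is thus better determined than either gene's. Windows of both genes also lie in Gm20634, a gene outside the rule. H2afz shares 12.9% of its windows with Gm8203, and H3f3a shares up to 4.44% with any single gene, the pseudogene H3f3c.

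In counts, the deposited quantifications treated cluster genes and variants differently. For each gene the alignment-free count was divided by the alignment-based count. The median ratio was 0.833 ± 0.0546 over cluster genes, 1.13 ± 0.0250 over variants and 1.15 ± 0.00214 over all protein-coding genes (SD, n = 2). The alignment-free count was the lower in both libraries for 34 of 66 members, against 2.3% of protein-coding genes. These were 33 of 56 cluster genes and 1 of 10 variants, H2afj. Summed TPM did not differ in this way. Over cluster genes it was 1118 ± 48.0 by alignment and 1106 ± 59.5 without (SD, n = 2). Over variants it was 505 ± 15.3 and 500 ± 37.2 (SD, n = 2).

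Length moved with the ratio of counts. Cluster genes under 600 bases had a median ratio of 0.685 ± 0.0325 (SD, n = 2, 32 genes), and 21 of the 32 were lower in both libraries. Of 180 other protein-coding genes of that length, 39.4% were lower in both, and their median ratio was 1.05 ± 0.00233 (SD, n = 2). From 600 to 1500 bases the medians were 0.856 ± 0.106 over 15 cluster genes and 1.12 ± 0.00103 over 2638 others, and from 1500 bases 1.03 ± 0.0461 over 9 and 1.15 ± 0.00146 over 11200 (SD, n = 2). Shared sequence moved with it as well, from a median of 1.09 at no shared window to 0.528 from 80% upward. The part of either was not tested.

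Summed by class, the ratio was 0.770 ± 0.00946 for H4, 0.902 ± 0.0118 for H2B, 0.975 ± 0.0211 for cluster H1, 0.978 ± 0.00495 for cluster H3 and 1.00 ± 0.00546 for cluster H2A (SD, n = 2). Summed variants gave 1.12 ± 0.00363 for H1, 1.15 ± 0.0182 for H2A and 1.15 ± 0.0200 for H3 (SD, n = 2). In summed TPM, H4 was at 532 ± 28.8 by alignment and 543 ± 27.6 without, and H2B at 222 ± 20.8 and 184 ± 25.3 (SD, n = 2). Of the H4 genes, Hist1h4h alone of the 6 with the highest levels had more counts in the alignment-free table in both libraries, 713 and 969 against 577 and 754, while Hist1h4d fell from 1008 and 1146 to 647 and 719.

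**Figure D5:**
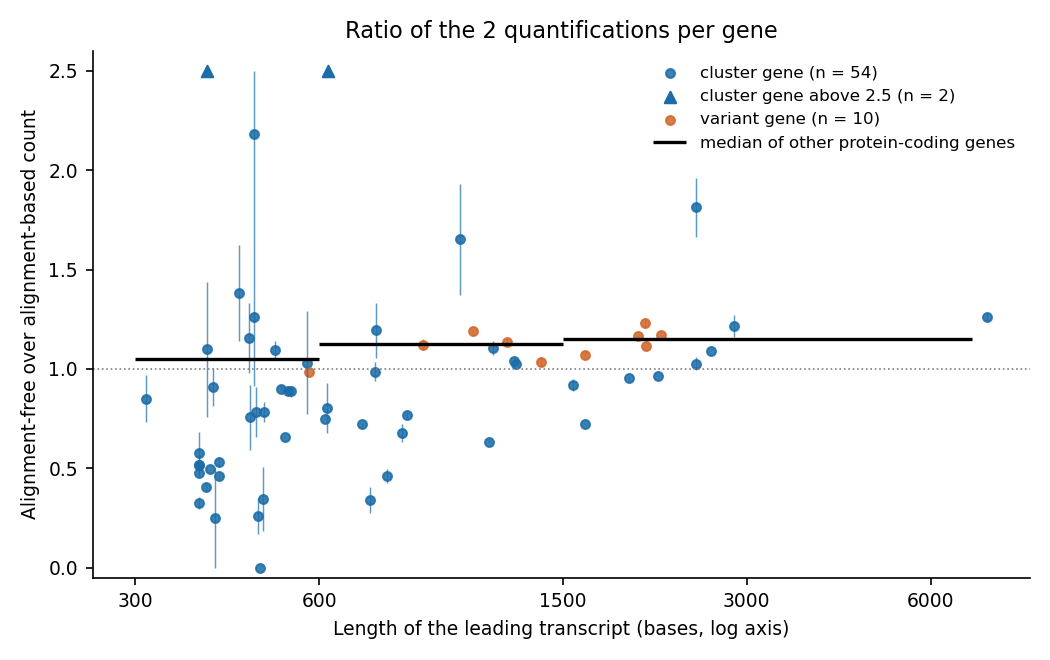
Alignment-free over alignment-based count against the length of the leading transcript (log axis) for 54 cluster genes and 10 variants with counts above 0 in both libraries. Points are the mean of both libraries, vertical lines run from one library to the other, triangles are genes above 2.5, and black bars are medians of other protein-coding genes in 3 length ranges; most cluster genes under 600 bases lie below 1.

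The 82 members have 118 annotated transcripts in all, and only 12 members have more than 1. The quantifications disagreed on some transcripts of these 12. For H3f3b the alignment-based table gave the coding transcript H3f3b-201 42.3% ± 0.417 and the noncoding H3f3b-204 47.9% ± 0.290 of the gene's TPM (SD, n = 2). The coding H3f3b-202 held 0.440% ± 0.184 there but 45.7% ± 1.85 without alignment, where H3f3b-201 held 7.09% ± 0.736 (SD, n = 2). The tables thus named different coding transcripts as the main one. The noncoding H3f3b-204 stood at 66.3 and 64.9 TPM by alignment and at 35.4 and 40.8 TPM without, and the whole gene at 137 ± 2.90 against 105 ± 4.99 TPM (SD, n = 2). H3f3a was divided mainly between H3f3a-201 (51.5% ± 2.23) and H3f3a-207 (38.9% ± 1.29), and without alignment these held 36.8% ± 0.294 and 45.2% ± 3.79 (SD, n = 2). The coding sequence of H3f3a-201 is 3 bases shorter, at 408 against 411.

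H2afj and H2afz differed in the same way. The longer H2afj-201 held 42.6% ± 3.08 of the gene's TPM by alignment and 76.8% ± 10.9 without (SD, n = 2). H2afz-201 held 91.9% ± 1.93 and 75.2% ± 8.02, with H2afz-205, a noncoding transcript, rising from 2.42% ± 1.05 to 21.5% ± 8.67 (SD, n = 2). For H2afy, both tables gave H2afy-201 close to the same share, 27.4% ± 2.19 and 30.9% ± 2.97 (SD, n = 2).

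Genes that serve histones were read beside the members. Of 26 genes of S phase and division, 13 reached TPM of 1 in both libraries, with a median of 1.31 ± 0.0707 TPM (SD, n = 2). Pcna, the sliding clamp of replication, led at 21.7 and 24.5 TPM, followed by Ccne1 at 6.97 and 7.73, Mcm7 at 7.07 and 7.38 and Mcm6 at 6.42 and 7.95. The proliferation marker Mki67 was at 0.38 and 0.32 TPM. The list thus stood low in the same libraries in which the median was 7.09 TPM over all cluster genes and 24.5 over cluster H4. Medians of the other cluster classes ran from 4.57 TPM for H2A to 6.83 for H2B, beside 4.41 over all protein-coding genes.

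Factors that process histone mRNA were detected for 18 of 19 genes, with a median of 12.9 ± 0.453 TPM (SD, n = 2). The highest were Srrt (Ars2, of the cap-binding complex) at 102 and 103 TPM, Sympk, a scaffold of the 3′ cleavage factors, at 46.3 and 44.7, and the cleavage factors Cstf2 at 43.2 and 46.6 and Cstf2t at 30.4 and 33.7. Histone chaperones were detected for 25 of 28, and their median was 32.6 ± 2.08 TPM (SD, n = 2). Leading were Nap1l5 at 130 and 125 TPM, Npm1 at 87.7 and 88.0, Atrx, which places H3.3 in heterochromatin, at 78.6 and 79.1, and Set at 77.6 and 79.9. All 14 genes of H2A.Z exchange were detected, and their median was 18.9 ± 0.781 TPM (SD, n = 2). Srcap, Ep400, Actl6b and Kat5 stood highest, at 38.4 to 58.6 TPM on average. Between the libraries, 9 of the 74 genes tested in these 4 lists differed at any fold by the exact binomial test, against 18% of all genes, with log2 ratios from -0.16 to 0.42, the highest that of Mcm6.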

How the data were processed

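ERCC spike-ins were added to total RNA, ribosomal RNA was removed and directional libraries were made, per the labels' protocols. The authors deposited, for each library, alignment-based gene and transcript tables and an alignment-free transcript table on mm10 and GENCODE M21, per the file headers and the notes deposited with them; no source used here names the quantifiers or the strand setting. The deposited values were expected counts (estimated, not whole), TPM, FPKM, each transcript's percent of its gene's TPM, and, as scores, the bounds of the TPM interval and the coefficient of quartile variation.

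From these, alignment-free values were summed per gene, and TMM factors (edgeR 4.0.16, R 4.3.3) and DESeq2 1.42.0 size factors were computed from expected counts rounded to whole numbers. The libraries were compared with an exact conditional binomial test (scipy 1.17.1), two-sided, Benjamini-Hochberg adjusted over 16971 annotated genes that averaged 20 or more expected counts. It was tried on simulated counts that held counting error only, without reads shared among copies. A biological coefficient of variation of 0.0886 between the libraries is part of neither the binomial test nor the simulation. Shared windows, stem-loops and coding sequences were read from GENCODE M21 transcripts, promoters from RefSeq (GRCm38.p6). Full values were given for the 15 members with the highest mean TPM, detected variants, members apart between libraries and members with a wide coefficient, and for the 4 highest genes of each other list. The members and lists were chosen with earlier results of these data known.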

Additional observations from a re-analysis of the deposited data

Results flagged for a closer look

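Reads were also assigned to genes whose symbols follow the same pattern but which are not annotated as protein-coding, and which no comparison used. Hist1h2al, annotated as a processed pseudogene, had 82.5 and 104.16 expected counts in replicates 1 and 2, and 0 in both libraries in the alignment-free table. Hist3h2bb-ps, another processed pseudogene, had 36.93 and 36.27 expected counts. H3f3aos, which lies antisense to H3f3a, had 46.0 and 37.0 expected counts, and without a stated strand setting its reads cannot be told from those of H3f3a. Each exceeded the limit of 3 counts that a count of 0 allows.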

How the results depend on the processing

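The log2 ratio of the cluster over the variant median, -1.44, was -1.16 with alignment-free TPM, -1.63 over members with a mean count of at least 20 and -0.35 as a difference of mean log2(TPM + 1). It turned to 0.24 with mean log2(TPM + 0.1) and to 1.15 with summed TPM, and ran from -1.51 to -1.38 with 1 library left out. The number detected was 68 to 69 with 1 library left out. On ERCC spike-ins the median log2 ratio between libraries was 0.29 for cluster genes and 0.27 for variants; on TPM it was 0.043 for variants. Members apart numbered 10 of 66 with spike-ins (1.89% of all genes), 2 of 60 with alignment-free counts (1.59%) and 13 of 66 at any fold (18%), against 6 of 66 (1.81%). Hist1h2ao turned to -0.041 with posterior mean counts (exact binomial test, adjusted p = 1), a setting chosen after seeing the data, and Hist1h2ap (-0.31, adjusted p = 0.61) and Hist1h3b (-0.20, adjusted p = 0.473) were not called with alignment-free counts. Wide members numbered 14 at 1.5 times (40.6% of protein-coding genes), 3 at 3 times (2.34%) and 23 at a coefficient of at least 0.1 (11.1%), against 6 (17.4%), and 6 to 9 with 1 library left out. The alignment-free ratio of variants was 0.968 by TPM; with 1 library left out it ran from 1.12 to 1.15, and from 0.795 to 0.872 for cluster genes. Variant shares, whose other units were also chosen after seeing the data, were 51.2% for H1 and 44.8% for H2A with alignment-free TPM, and 63.4% for H2A and 84.3% for H3 by counts; with 1 library left out they ran from 46.7% to 49.1% for H1, 45.8% to 49.0% for H2A and 71.7% to 73.2% for H3. The cause of these differences was not tested. No paired analysis was possible because both libraries belong to 1 group.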
